A study of Mus musculus with 6 samples.

Results

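The U1 small nuclear ribonucleoprotein (U1 snRNP) is the particle of the splicing machinery that first recognises the start of an intron. The genes followed here after depletion of the nuclear splicing protein Son code for its proteins or for proteins that work beside it: the U1 proteins *Snrnp70*, *Snrpa* and *Snrpc*, the LUC7-like genes *Luc7l*, *Luc7l2* and *Luc7l3*, and the U1-associated genes *Prpf39*, *Rbm25* and *Tia1*. They were chosen by name, and all 9 were present among the 12134 genes of the short-read tables. The cells were E14 mouse embryonic stem cells (129/Ola background) grown in serum with leukemia inhibitory factor. The cells received a *Son* siRNA or a control siRNA by lipofection, and RNA was taken 24 hours later. Short reads came from ribosome-depleted total RNA of 2 control and 2 knockdown samples, and 1 control and 1 knockdown sample were sequenced as Nanopore long-read cDNA.

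As background, the RNA of U1 pairs through its 5′ end with the first bases of the intron, and its proteins stabilise that pairing. LUC7-like proteins, relatives of a yeast U1 component, influence which 5′ splice sites are used, and *Tia1*, *Rbm25* and *Prpf39* are known to act with U1 at sites that it binds poorly or selectively. Several genes of splicing proteins keep introns or make transcripts that are degraded, and such forms are annotated for most of the genes described here.

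The short-read tables count spliced (split) and unspliced (unsplit) reads at the junctions of every intron. The share of split reads over both junctions is the intron's splicing efficiency, from 0 to 1. The 4 libraries held from 10556187 to 16012286 split reads at 5′ junctions. *Son* itself had 283 and 314 CPM (spliced reads scaled to the library total) in the controls, against 93.5 and 102 in the knockdown, a log2 change of −1.61 (SE 0.087; edgeR quasi-likelihood test, adjusted p = 3.72e-10). Of 8 stem cell markers, 7 had listed introns, and their summed level was 4517 to 4715 CPM over the 4 libraries. Of the 7, *Tfcp2l1* was called with more spliced reads (log2 change 0.23, adjusted p = 0.0354), and *Pou5f1*, the most abundant in CPM, with more unsplit reads (0.59, adjusted p = 0.000918) and lower splicing efficiency (0.79 in the log2 odds of unsplit reads, adjusted p = 0.00259). Of 6 fibroblast and 6 primitive endoderm markers, 1 each had a listed intron in all 4 libraries, at 1.16 to 2.17 and 1.83 to 2.91 CPM. Nothing in the labels says that replicates came from separate cultures, so p-values measure the spread between these samples only. In bulk RNA, fewer cells of a type and less RNA per cell cannot be told apart.

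The members had 60 introns listed in any library, of 85015 in all, and 54 in all 4 libraries, of 68322. The other 6, of *Snrpc* (1), *Prpf39* (1), *Rbm25* (2) and *Tia1* (2), were listed in 1 to 3 libraries and were not tested. The mouse annotation used for names (GENCODE M21, build GRCm38) holds 117 transcript models and 176 introns of the 9 genes. Of these introns, 66 overlap no exon of any model, and all 60 listed introns were among these 66. Introns that lie inside an exon of another model, the annotated retained introns, were thus not measured in the short-read tables. They were followed through long reads, which are assigned to whole transcript models.

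The sequences below show what U1 meets at such introns. The first 11 bases of the mouse U1 RNA, written as DNA, are the same in 4 annotated U1 genes, and the capitals mark bases 3 to 11, which pair with a 5′ splice site.
U1 5′ end: atACTTACCTG
The site that pairs at all 9 positions, 3 exon and 6 intron bases, is its complement.
Perfect site: CAGGTAAGT
Retained-intron models, which the annotation types as keeping sequence that another model splices out, accounted for 12 of the 36 member transcripts with at least 20 long reads. Of the 12, 7 held at least 1 whole intron of another model, and the other 5 held none. The 5′ splice sites of such introns follow for 6 of these models, 1 for each of the 6 genes that have one. Each line gives 3 exon bases and 20 intron bases, and capitals among the first 9 bases mark those that match the perfect site (GENCODE M21, GRCm38).
Snrnp70-208, chr7:45392134-45392262, minus strand: aAGGTAtGctgtttttacctctg
Luc7l2-206, chr6:38557381-38557851, plus strand: CAaGTAAGcctatgtttttgaga
Rbm25-204, chr12:83651445-83651645, plus strand: ggGGTAtGTaatatcttttctag
Prpf39-205, chr12:65043358-65043542, plus strand: gAGGTgcGTacatcaatgaatac
Luc7l-204, chr17:26254389-26255030, plus strand: tgGGTAcagtatgtgttggagtt
Snrpc-202, chr17:27848058-27851637, plus strand: CAGGTAAGTcggaacgtgtcaca
The *Snrnp70* site belongs to an intron of 129 nt, intron 3 of the coding model Snrnp70-201, and pairs at 6 positions. The *Luc7l2* site (471 nt) pairs at 7, the *Rbm25* (201 nt) and *Prpf39* (185 nt) sites at 6, the *Luc7l* site (642 nt) at 4 and the *Snrpc* site (3580 nt) at 9. Luc7l-204 also held an intron whose site paired at 5 positions, and Snrpc-202 held others with 6 and 8. Over the 13 distinct sites of the 7 models, 7 paired at 6 positions. The *Luc7l* and *Snrpc* sites shown had the fewest and the most pairs of the 13. The median of all 15354 annotated introns held inside an exon of another model was also 6 (quartiles 5 to 7), so the members' sites did not stand apart by this count. A match of letters is a description and does not show that U1 binds there.

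Spliced RNA of the 9 genes was compared first, as split reads at 5′ junctions summed over the introns of each gene. No member passed the test at an adjusted p under 0.05 (0 of 9), in a table where 8.72% of 9474 genes were called, 1.96% with more and 6.76% with fewer spliced reads. At an unadjusted p under 0.05 the count was also 0 of 9, against 19.7% of all genes, and DESeq2 called 0 of 9, beside 7.09% of all genes. The median log2 change of the members was −0.03, beside 0.01 over all genes tested. The 95% interval of the change held 0 for all 9, and no interval reached beyond −0.38 or 0.46.

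**Figure D1:**
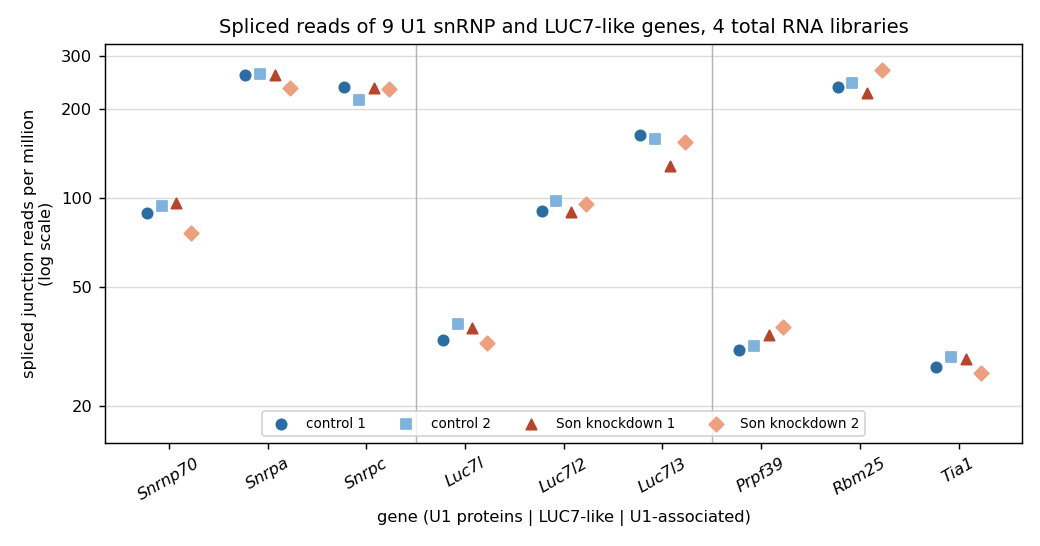
Spliced junction reads in CPM (log scale) of the 9 genes in each of the 2 control and 2 *Son* knockdown libraries, with 1 point per library. Libraries of both groups interleave for most genes, both knockdown points of *Snrpa* and *Luc7l3* lie below the controls, and both of *Prpf39* lie above them.

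Among the U1 proteins, *Snrnp70*, which holds a stem-loop of the U1 RNA, had 88.7 and 94.3 CPM in the controls, against 96.3 and 76.3 in the knockdown. Knockdown replicate 2 was the lowest library and replicate 1 the highest, so the groups overlapped, and the log2 change was −0.08 (SE 0.11, adjusted p = 0.766). *Snrpa*, which binds another stem-loop of U1, had 260.0 and 260.6 CPM in the controls, against 259.7 and 234.9 in the knockdown. Both knockdown libraries were below both controls, by little in replicate 1, and the log2 change was −0.07 (SE 0.08, adjusted p = 0.683). *Snrpc*, the protein that sits next to the duplex of U1 and the splice site, had 236 and 214 CPM in the controls, against 235 and 232 in the knockdown. Its knockdown libraries lay between the controls, and the log2 change was 0.05 (SE 0.08, adjusted p = 0.786).

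Of the LUC7-like genes, *Luc7l3* had the largest difference of the 9 in the downward direction. It had 163 and 158 CPM in the controls, against 129 and 155 in the knockdown, so that both knockdown libraries were below both controls. The log2 change was −0.19 (SE 0.09, unadjusted p = 0.0614, adjusted p = 0.283), with an interval from −0.38 to 0.01. The value rested mainly on knockdown replicate 1: without knockdown replicate 2 it was −0.32, and without knockdown replicate 1 it was −0.05. *Luc7l* had 33.3 and 37.6 CPM in the controls, against 36.7 and 32.4 in the knockdown, with overlapping groups and a log2 change of −0.03 (SE 0.13). *Luc7l2* had 90.3 and 97.7 CPM in the controls, against 89.5 and 95.7 in the knockdown, also overlapping, with a log2 change of −0.02 (SE 0.10).

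Among the U1-associated genes, *Prpf39*, whose product is the mammalian counterpart of a yeast U1 protein, had 30.8 and 31.9 CPM in the controls, against 34.7 and 36.9 in the knockdown. Both knockdown libraries were above both controls, but the log2 change of 0.19 (SE 0.13, adjusted p = 0.460) did not pass the test. *Rbm25*, an RNA-binding protein that works together with *Luc7l3*, had 236 and 243 CPM in the controls, against 225 and 270 in the knockdown. The 2 knockdown libraries enclosed the controls, and the log2 change was 0.05 (SE 0.09, adjusted p = 0.831). *Tia1*, which binds U-rich sequence downstream of weak 5′ splice sites, had 27.0 and 29.2 CPM in the controls, against 28.7 and 25.7 in the knockdown (log2 change −0.04, SE 0.14). Over the 9 genes, both knockdown libraries were below both controls for 2 and above for 1, where 24.6% and 24.0% of all genes tested were so.

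Single libraries decided the sign of some of these changes. Without knockdown replicate 1, the log2 change in spliced reads was −0.26 for *Snrnp70* and 0.17 for *Rbm25*. Without knockdown replicate 2, both changes had the opposite sign, 0.08 and −0.09. Such a fit leaves 1 knockdown library and cannot show the spread between knockdown samples, so no calls are given. The knockdown replicates differed from each other by more than the group means did for both genes.

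The order of the levels between genes was read per junction, as the control mean of spliced CPM divided by the number of introns summed. *Snrpc* (113) and *Snrpa* (86.8) were the highest. *Luc7l3* (22.97), *Snrnp70* (22.88) and *Rbm25* (19.9) followed with close values, then *Tia1* (14.0), *Luc7l2* (8.55), *Luc7l* (5.91) and *Prpf39* (5.23). The places of *Snrpa* and *Snrnp70* rested mainly on 1 intron each, as did their summed reads and efficiencies. In control replicate 1, the *Snrpa* intron of 2071 nt had 6716 split reads over both junctions, against 724 and 600 in its other introns. The *Snrnp70* intron of 83 nt had 2246, against 265, 135 and 99. In the long reads, where a read counts once whatever the length of its transcript, the control order was led by *Luc7l2* with 674 CPM (95% Wilson interval 646 to 704). *Snrpc* (329 CPM), *Snrnp70* (265), *Rbm25* (200) and *Snrpa* (137) came next. *Luc7l* (80.5, interval 71.1 to 91.2) and *Luc7l3* (74.3, 65.3 to 84.6) overlapped, as did *Prpf39* (26.6, 21.4 to 33.0) and *Tia1* (21.1, 16.6 to 26.9). *Luc7l2* was thus at the top of the long-read order and in the lower part of the order per junction.

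Unspliced RNA of the 9 genes was compared next, as unsplit reads at both junctions summed over introns. No member was called (0 of 9), where 3.88% of 8722 genes were called, 3.66% with more and 0.218% with fewer unsplit reads, and DESeq2 also called 0, beside 1.91% of all genes. At an unadjusted p under 0.05 there was 1 of 9, *Luc7l3*, beside 13.9% of all genes. *Luc7l3* had 238 and 253 unsplit CPM in the controls, against 165 and 220.5 in the knockdown. Both knockdown libraries were below both controls, which held for 19.9% of all genes tested, and for no other member. Its log2 change was −0.35 (SE 0.15, unadjusted p = 0.0205, adjusted p = 0.224). Without knockdown replicate 2 it was −0.57 and was called (adjusted p = 0.0357), and without knockdown replicate 1 it was −0.16 and was not. The spliced reads of *Luc7l3* lay below the controls in the same libraries, and its splicing efficiency over all introns was 0.924 and 0.908 in the controls, against 0.930 and 0.909 in the knockdown.

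*Snrpa* had few unsplit reads, 77 and 50 in the controls, against 33 and 64 in the knockdown, with a log2 change of −0.42 (SE 0.30, adjusted p = 0.614). Without knockdown replicate 2 the change was −1.12, and without knockdown replicate 1 it was 0.08. *Luc7l2* had 518 and 490 unsplit CPM in the controls, against 502.5 and 569 in the knockdown. The log2 change of *Luc7l2* was 0.09 (SE 0.12, adjusted p = 0.848). The other 6 members had log2 changes from −0.21 (*Luc7l*) to 0.12 (*Snrpc*), with intervals that held 0.

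The ratio of unsplit to split reads was then tested per gene in a model with a term for each library. A positive log2 change stands for a higher ratio of unsplit reads, and so for a lower splicing efficiency, in the knockdown. Of the 9 members 0 were called, where 7.11% of 9370 genes were called, 6.98% with lower and 0.128% with higher efficiency. At an unadjusted p under 0.05 there were again 0 of 9, against 13.8% of all genes, and DESeq2 called 0, beside 5.40% of all genes. The members' median log2 change was 0.02, and that of all genes tested was 0.09. That general value depended on scaling: with split and unsplit reads scaled to their own totals, the median of all genes was −0.08, and 601 genes were called with lower and 118 with higher efficiency, against 654 and 12.

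**Figure D2:**
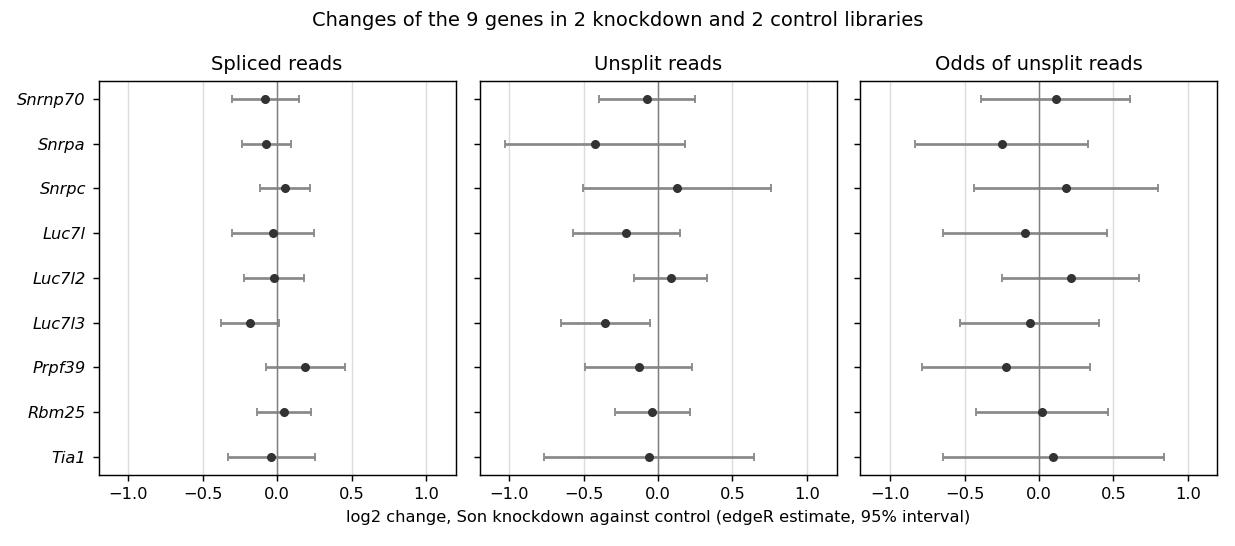
Log2 changes in the *Son* knockdown against control for spliced reads, unsplit reads and the odds of unsplit reads of each gene (points: edgeR estimates from 2 control and 2 knockdown libraries; bars: 95% intervals). The intervals hold 0 for all 9 genes in spliced reads and in odds, and for 8 of 9 in unsplit reads, where *Luc7l3* is the exception.

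The genes differed in splicing efficiency. *Snrpc* had a splicing efficiency over all its introns of 0.994 and 0.991 in the controls, against 0.993 and 0.990 in the knockdown, and *Snrpa* had 0.991 and 0.991, and 0.996 and 0.987. *Luc7l2* had the lowest value over all introns, at 0.755 and 0.756 in the controls, against 0.750 and 0.704 in the knockdown. This sum takes in introns listed under the model Luc7l2-202, with control means of 0.137, 0.303 and 0.546. The introns listed under the coding model Luc7l2-208 had control means from 0.866 to 0.936. Over all introns, the knockdown libraries of *Luc7l2* were below both controls, as for 27.1% of all genes tested. Its log2 change in odds was 0.21 (SE 0.24, adjusted p = 0.874). *Luc7l* had 0.805 and 0.794 in the controls, against 0.863 and 0.744 in the knockdown, where the 2 knockdown libraries enclosed the controls (log2 change −0.10, SE 0.28). *Prpf39* had 0.820 and 0.825 in the controls, against 0.842 and 0.845 in the knockdown, both higher, as for 11.2% of all genes. The log2 change of *Prpf39* was −0.22 (SE 0.29, adjusted p = 0.909). *Snrnp70*, *Luc7l3*, *Rbm25* and *Tia1* had control means from 0.897 to 0.954 and log2 changes from −0.06 to 0.11.

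Single introns were tested with the same model over 63309 introns of the whole table. None of the 54 member introns was called (0 of 54), where 1.76% of all introns were called, 1.71% with lower and 0.0442% with higher splicing efficiency in the knockdown. At an unadjusted p under 0.05 there were 0 of 54 members, against 9.72% of all introns. DESeq2 called 0 of 54, in a table where it called 0.464% of introns, and limma called no intron of the whole table. The lowest adjusted p was 0.718. The mean efficiency of the knockdown was below that of the controls in 30 introns and above in 24, with a median difference of −0.0017, beside −0.0038 for all introns. Both knockdown libraries were below both controls in 10 of the 54 and above both in 5, where 24.3% and 13.1% of all introns were so. Of 10 member introns of at most 300 nt, none was called, in a class where 6.40% of 13205 introns were called lower.

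The intervals were wide. All 54 held 0, and they reached from a log2 change of −2.85 (*Luc7l*, 1695 nt) to 2.05 (*Rbm25*, 112 nt). The median member intron had 308.5 junction reads per library, a sum in which a read that spans the intron counts at both junctions. In the knockdown, 41 of the 54 introns had a lower efficiency in replicate 2 than in replicate 1, and in the controls 30 of 54 did. Over all introns these shares were 61.2% and 59.0%.

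**Figure D3:**
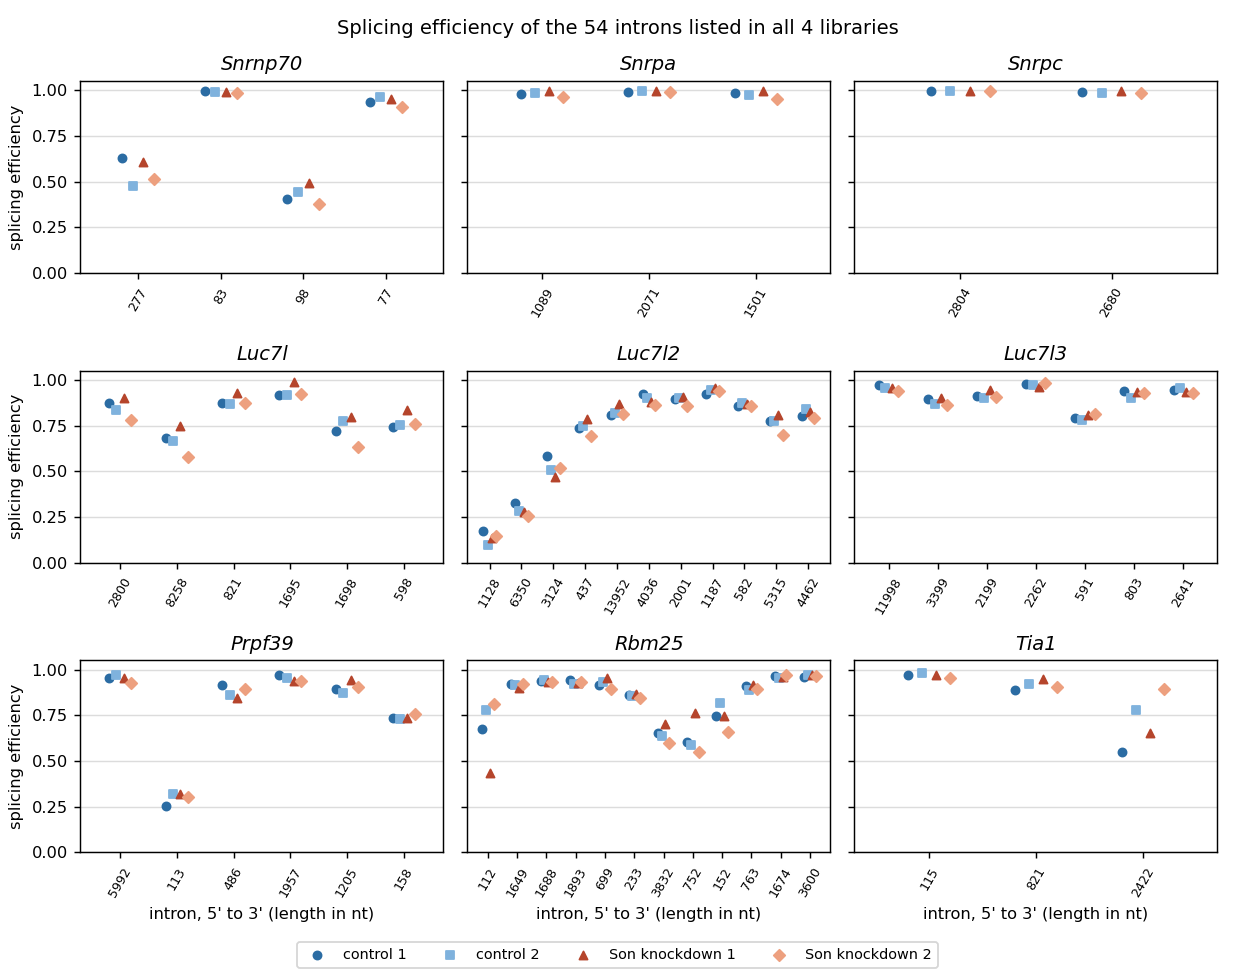
Splicing efficiency (0 to 1) of the 54 member introns in 2 control and 2 *Son* knockdown libraries, 1 panel per gene, introns ordered 5′ to 3′ and marked by their length in nt. The introns of *Snrpa* and *Snrpc* lie near 1, the efficiency of *Luc7l2* introns is lowest at the 5′ end, and the libraries of the 2 groups mix at most introns.

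The members' introns had a lower splicing efficiency than the introns of the whole table already in the controls. Their median control efficiency was 0.893, beside 0.938 for all 68322 introns, and 18 of 54 (33.3%) were below 0.8, beside 12.01% of all. This did not hold for the 9 introns of the U1 proteins, with a median of 0.980, although 2 of them, both of *Snrnp70*, were below 0.8. The median was 0.861 for the 24 LUC7-like and 0.900 for the 21 U1-associated introns. These are descriptions of introns that share genes, and no test was made. In some low introns the controls' unsplit reads lay mainly at 1 junction. The *Rbm25* intron of 3832 nt had 120 at the 5′ and 12 at the 3′ junction. In others they were even, as in the *Prpf39* intron of 113 nt, with 81 and 84. Whether introns of low efficiency were kept whole was not tested. Positions of these introns are given as deposited. The submitters' processing notes list the build GRCm39, and do not say for which step.

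Within *Snrnp70*, the 4 listed introns were far apart. The intron of 98 nt (chromosome 7, 45030043 to 45030140, in the noncoding model Snrnp70-209) had efficiencies of 0.407 and 0.443 in the controls, against 0.494 and 0.376 in the knockdown. The intron of 277 nt (45044240 to 45044516, in the 5′ UTR of Snrnp70-212) had 0.628 and 0.475, and 0.607 and 0.516. In both, each group enclosed or overlapped the other. The introns of 83 nt and 77 nt between coding exons of Snrnp70-201 were spliced nearly fully, the first at 0.996 and 0.989 in the controls, against 0.993 and 0.986 in the knockdown. The second (45026703 to 45026779) had the largest downward difference in the mean of the 4, with 0.933 and 0.962 in the controls, against 0.953 and 0.908 in the knockdown (log2 change in odds 0.30, SE 0.60, adjusted p = 0.970).

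The introns of *Snrpa* and *Snrpc* were all above 0.95 in every library. The largest downward difference in *Snrpa* was in the intron of 1501 nt (chromosome 7, 26886790 to 26888290), with 0.987 and 0.972 in the controls, against 0.993 and 0.951 in the knockdown. For *Snrpc* it was the intron of 2804 nt (chromosome 17, 28061353 to 28064156), with 0.996 and 0.995 and then 0.993 and 0.994. In that intron the knockdown libraries were both lower, by less than 0.01, with 16 and 15 unsplit reads in the controls, against 28 and 19 in the knockdown (log2 change 0.54, SE 0.41, adjusted p = 0.796).

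*Luc7l2* had a gradient along its 5′ end. Its first listed intron (1128 nt, chromosome 6, 38535011 to 38536138, in the 5′ UTR) had an efficiency of 0.173 and 0.100 in the controls, against 0.135 and 0.147 in the knockdown. The next (6350 nt, also in the 5′ UTR) had 0.325 and 0.281 in the controls, against 0.277 and 0.258 in the knockdown, and the third (3124 nt) had 0.583 and 0.508, and 0.471 and 0.516. From the fifth listed intron on, control means were above 0.75. These 5′ introns are named here after the model Luc7l2-202. The annotation types it as a target of nonsense-mediated decay, the pathway that degrades RNA with an early stop. The introns of 6350 and 3124 nt are not particular to it. Models that splice them had 293 long reads in the control and 162 in the knockdown, against 277 and 153 for Luc7l2-202. The third intron had the largest downward difference of the gene (log2 change 0.33, SE 0.61, adjusted p = 0.969). The intron of 13952 nt (38548024 to 38561975) had the largest upward difference in the mean, with 0.811 and 0.817 against 0.865 and 0.815 (−0.29, SE 0.49). In the intron of 4036 nt both knockdown libraries (0.878 and 0.860) were below both controls (0.922 and 0.903), with an unadjusted p of 0.159.

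In *Luc7l*, 3 of 6 introns had a control mean below 0.8. The intron of 1698 nt (chromosome 17, 26496609 to 26498306) had the largest downward difference, with 0.721 and 0.775 in the controls, against 0.798 and 0.633 in the knockdown. The intron of 598 nt (26498337 to 26498934) had the largest upward difference, with 0.744 and 0.753 against 0.835 and 0.757 (log2 change −0.43, SE 0.50, adjusted p = 0.925). *Luc7l3* introns had control means from 0.786 to 0.974. The lowest was its intron of 591 nt (chromosome 11, 94187994 to 94188584). That intron had 0.792 and 0.781 in the controls, against 0.810 and 0.814 in the knockdown, the largest upward difference of the gene. The largest downward difference was in its intron of 2641 nt, with 0.946 and 0.956 against 0.935 and 0.926 (log2 change 0.51, SE 0.52, adjusted p = 0.900).

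*Prpf39* had 1 intron that was mostly unspliced, of 113 nt (chromosome 12, 65102095 to 65102207), which lies in the 3′ UTR of the decay-target model Prpf39-202. Its efficiency was 0.253 and 0.317 in the controls, against 0.322 and 0.301 in the knockdown. The largest downward difference was in the intron of 1957 nt (0.970 and 0.952, then 0.940 and 0.936) and the largest upward one in that of 1205 nt (0.894 and 0.871, then 0.941 and 0.902). Neither passed the test (log2 changes 0.73 and −0.68, adjusted p = 0.840 and 0.827).

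*Rbm25* introns ranged from 0.597 to 0.965 in the control mean, with the low ones at the 5′ end (112 nt) and in the middle of the gene (3832, 752 and 152 nt). The intron of 152 nt (chromosome 12, 83721438 to 83721589, in a noncoding model) had 0.747 and 0.817 in the controls, against 0.747 and 0.658 in the knockdown. It had the lowest p of the 54 introns (log2 change 0.59, SE 0.38, unadjusted p = 0.124), and the largest downward difference among *Rbm25* introns that had 50 reads or more in each library. The intron of 752 nt (83718756 to 83719507) had the largest upward difference, with 0.606 and 0.587 in the controls, against 0.765 and 0.548 in the knockdown. That difference rested on knockdown replicate 1, and replicate 2 was below both controls. Of the *Tia1* introns, that of 115 nt had 0.971 and 0.979 in the controls, against 0.968 and 0.952 in the knockdown, and that of 821 nt had 0.891 and 0.922, and 0.950 and 0.903. The *Tia1* intron of 2422 nt is also listed under an overlapping gene, Gm44790, and was left out of the sums per gene. It spread from 0.549 to 0.778 in the controls and from 0.656 to 0.894 in the knockdown.

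The long reads showed how the transcripts of each gene are distributed over its models. There was 1 library per group (3080426 reads in the control and 1874851 in the knockdown) and so no replicate check, and intervals cover counting error only. A read assigned to a retained-intron model need not cover the retained intron. The labels of the control and of the knockdown long-read sample give the same knockdown RNA as starting material, so how they relate to the short-read samples is unclear. Of the 117 member transcripts, 94 had at least 1 read and 36 had at least 20.

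*Snrnp70* was mostly assigned to retained-intron models. In the control library 485 of its 815 reads, 59.5% (56.1 to 62.8, 95% Wilson interval), were on such models, and in the knockdown library 377 of 546, 69.0% (65.0 to 72.8). The difference was 9.54 percentage points, with a 95% interval from 4.34 to 14.6. The model Snrnp70-208, which holds the intron of 129 nt shown above, had 404 reads in the control and 306 in the knockdown, or 131 and 163 CPM. The coding model Snrnp70-201, which splices that intron, had 297 and 147 reads, or 96.4 and 78.4 CPM. The log2 ratio was 0.32 for the first and −0.30 for the second. The total of the gene was 265 CPM in the control (247 to 283) and 291 in the knockdown (268 to 317).

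*Rbm25* showed a difference of like size, with 239 of 615 reads on retained-intron models in the control, 38.9% (35.1 to 42.8), and 167 of 344 in the knockdown, 48.5% (43.3 to 53.8). The difference was 9.68 points (3.15 to 16.2). Its coding model Rbm25-201 had 303 and 142 reads (98.4 and 75.7 CPM), and its retained-intron models Rbm25-212 and Rbm25-204 had 120 and 94, and 105 and 59 reads. Rbm25-212 had a log2 ratio of 0.36 and Rbm25-204 one of −0.11, so the 2 ratios had opposite signs. Only Rbm25-204 holds a whole intron, the one whose site is shown above.

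For the other 7 genes the interval of the difference held 0. *Tia1* had 49.2% of 65 reads on such models in the control and 43.1% of 58 in the knockdown, and *Prpf39* 26.8% of 82 and 32.6% of 43. *Luc7l2* had 14.4% of 2076 reads (13.0 to 16.0) and 13.7% of 1262 (11.9 to 15.7), the pair with the most reads of the 9. *Luc7l* had 10.9% of 248 and 15.9% of 170. *Snrpa*, *Luc7l3* and *Snrpc* had 3.55%, 2.18% and 1.78% in the control and 3.25%, 4.03% and 2.24% in the knockdown. Over all 9 genes the share was 20.5% in the control and 23.3% in the knockdown, a difference of 2.82 points (1.07 to 4.59), and over all genes of the annotation it was 6.24% and 6.64%. The value over the 9 pools reads and takes in *Snrnp70* and *Rbm25*, the only 2 genes whose own interval left out 0. It does not show a difference shared by the 9 genes.

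**Figure D4:**
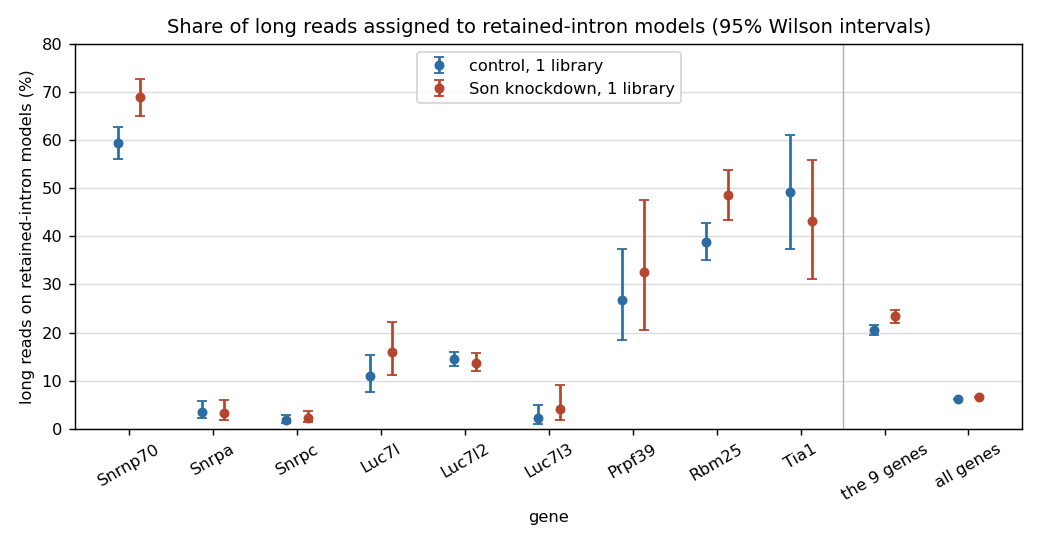
Percentage of each gene's long reads assigned to retained-intron models in the control and the *Son* knockdown library (points, 1 library each; bars: 95% Wilson intervals, counting error only). The intervals of the 2 libraries are apart for *Snrnp70* and for *Rbm25*, overlap for the other 7 genes, and the 9 genes together lie above the share of all genes.

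For comparison, 1460 genes had at least 100 reads in each library and reads on retained-intron models in either. Genes with such models but no read on them were left out. Of the 1460, 8.42% had a control share at least as high as *Snrnp70*, and 10.1% one at least as high as *Rbm25*. The median such gene had 2.77% and differed by 0.05 points, and 52.3% of them had a higher share in the knockdown library. A difference at least as large and upward as that of *Snrnp70* was found in 1.71% of these genes, and as that of *Rbm25* in 1.64%. These genes differ in control share, and genes with a share like that of *Snrnp70* or *Rbm25* were not compared apart. These shares describe the 2 libraries and not the conditions.

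By transcript, 2 of the 36 member transcripts with at least 20 reads had a level in the knockdown library at least 2-fold that of the control and 1 was at least 2-fold lower, where 3.16% and 6.04% of 13807 transcripts were so. The higher ones were the retained-intron models Snrnp70-216 (18 and 27 reads, log2 ratio 1.27) and Luc7l-204 (20 and 25 reads, 1.02). The lower one was Prpf39-202, the decay-target model with the poorly spliced intron of 113 nt (20 and 5 reads, −1.22). All 3 had 45 reads or fewer in all, and with a minimum of 50 reads none remained. The median log2 ratio of the 36 was 0.001, beside −0.008 for all transcripts.

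The most-read models of the other genes had log2 ratios between −0.28 (Luc7l3-203) and 0.56 (Tia1-202). Luc7l2-208, the main coding model of *Luc7l2*, had 1199 and 755 reads (389 and 403 CPM), its retained-intron model Luc7l2-206 had 278 and 165 (90.2 and 88.0 CPM), and the decay-target model Luc7l2-202 had 277 and 153 (89.9 and 81.6 CPM). Reads on models of the nonsense-mediated decay type made up 13.7% of *Luc7l2* reads in the control and 12.8% in the knockdown. Snrpc-203 had 841 and 514 reads (273 and 274 CPM). Snrpa-201 and Snrpa-202 had 172 and 125, and 138 and 83 reads. Luc7l-201 had 138 and 89 reads, Luc7l3-203 had 134 and 67 (log2 ratio −0.28), Prpf39-201 had 40 and 24, and Tia1-202 had 21 and 19. *Luc7l3* as a whole was at 74.3 CPM in the control and 66.1 (55.5 to 78.8) in the knockdown, with overlapping intervals.

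Genes related to the U1 pathway were read from a list of 32, of which 29 had listed introns in all 4 libraries. The list takes in 9 partners and paralogs, not all of which belong to the U1 pathway. Among these are *Snrpb2*, *Snrnp35*, *Snrnp25*, *Snrnp48*, *Zcrb1* and *Rnpc3*. None of 28 tested was called with more and 1 with fewer spliced reads, and 2 of 29 tested were called with lower and 0 with higher splicing efficiency. The shares over all genes tested were 6.76% for fewer spliced reads and 6.98% for lower efficiency, so these counts were near or below the background. The median log2 change in spliced reads was −0.02, and in odds 0.02. Among the proteins of the Sm ring, which encircles the U1 RNA, 0 of 8 were called in spliced reads. Likewise 0 of 9 tested genes of ring assembly (the SMN and methylosome complexes) and 0 of 3 of snRNA export, capping and import were called. At an unadjusted p under 0.05 there were 3 of the 28, where 19.7% of all genes were so, and DESeq2 called 1, *Prpf40b*.

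The gene called in spliced reads was *Prpf40b*, a relative of a yeast U1 protein. It had 45.3 and 41.6 CPM in the controls, against 23.8 and 22.5 in the knockdown, with both knockdown libraries far below both controls. Its spliced reads fell by 0.91 on the log2 scale (SE 0.13, adjusted p = 6.65e-05). Its unsplit reads rose from 84.8 and 71.1 to 158 and 138 CPM (log2 change 0.92, SE 0.18, adjusted p = 0.000491). Its splicing efficiency went from 0.903 and 0.902 to 0.724 and 0.696 (log2 change in odds 1.91, SE 0.29, adjusted p = 1.02e-08). Measured at its best covered intron alone, the change in spliced reads was −0.61 and was not called (adjusted p = 0.385). Without control replicate 2 the log2 change in unsplit reads was 0.80.

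The other called gene was the Sm protein gene *Snrpd2*, measured at 1 intron. It had 1 and 6 unsplit reads in the controls, against 19 and 8 in the knockdown, with efficiencies of 0.999 and 0.991, and 0.982 and 0.982. Its log2 change in odds was 2.08 (SE 0.62, adjusted p = 0.0157). DESeq2 did not call it (adjusted p = 0.535), and without control replicate 1 the log2 change in odds was 1.07.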

How the data were processed

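Per the labels, the authors deposited SPLICE-q tables for total RNA: each row holds counts of spliced (split) and unspliced (unsplit) reads for the ends of an intron, with a score that is a fraction from 0 to 1. A check of the tables found that the deposited fraction is the split share of the reads of both ends, and that no listed end had fewer than 10 reads. Per the labels, the long-read tables hold counts of reads per transcript. The submitters' processing notes name SAMtools, minimap2 and GRCm39 with no role. Settings, annotation and strand use are not given in the sources used here, so values of genes with an overlapping gene on the other strand are uncertain.

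Introns repeated for several transcripts were counted once by chromosome, strand and ends. Introns listed in all 4 libraries were tested, those of more than 1 gene were left out of gene sums, and names came from GENCODE M21 by identifier. Intron lengths were the same as in M21 for 99.7% of 268789 rows and positions for 2.28%, so positions are given as deposited and sequences with GRCm38 positions.

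edgeR 4.0.16 (R 4.3.3) quasi-likelihood tests were run over all introns or genes with Benjamini-Hochberg adjustment and a threshold of 0.05. The ratio of unsplit to split reads was tested as the interaction of read kind and knockdown, in a design with terms for the libraries and the read kind. Introns entered this test from 10 reads of each kind, summed over the libraries. Reads per gene used TMM and the default expression filter. Alternatives were DESeq2 1.42.0, limma 3.58.1, other scalings, filters and junctions, a replicate block and leaving out each library. Long reads were divided by library totals, with ratios at a pseudocount of 0.5 reads, scaled to depth, and Wilson intervals from scipy 1.17.1. Scripts were tested on simulated data. The main design had no replicate block. Over genes, deviations of same-numbered samples correlated at 0.0017 in spliced reads and 0.035 in odds. Such a correlation does not show a shift shared by all genes.

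The members, lists and tests were chosen with earlier results of these data known. Named introns are the largest fall and rise of each gene among introns that had 50 reads or more in each library. Named transcripts are the 2 most read of each gene, retained-intron and decay models from 20 reads up, and those changed 2-fold. Other genes named are those called over all genes. Further values, such as those of introns with low efficiency, were picked after they were seen.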

Additional observations from a re-analysis of the deposited data

How the results depend on the processing

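The alternatives recomputed 213 values of named introns, 90 of gene odds, 81 of spliced and 81 of unsplit reads. The sign of the log2 change differed in 22, 17, 10 and 12 of these, and in 11, 4, 2 and 6 of them the value also moved by more than its main standard error; none of these was called. No member intron and no member gene in odds was called under any alternative run.

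With the 3′ junction alone, the log2 change in odds was −0.34 (*Snrnp70*, 77 nt), 0.77 (*Snrnp70*, 277 nt), 0.35 (*Luc7l2*, 13952 nt), 0.50 (*Luc7l3*, 591 nt) and −0.38 (*Tia1*, 115 nt), against the sign given above. With the 5′ junction alone it was −0.56 (*Luc7l3*, 2641 nt) and 0.10 (*Prpf39*, 1205 nt). At the best covered intron alone, the log2 change of unsplit reads had the opposite sign, at 0.32 (*Snrnp70*), −0.56 (*Luc7l2*), 0.77 (*Prpf39*) and 0.41 (*Tia1*). For the best covered intron and single junctions fewer reads enter each value. In long reads, a pseudocount of 5 left 1 transcript 2-fold higher and 0 lower, and a minimum of 50 reads left 0 and 0.

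Leaving out each library in turn left 1 sample in a group, so only log2 changes of these fits are given here. Log2 changes in odds then ranged from −1.37 to 1.41 (*Snrpa*, 1501 nt), −0.94 to 0.090 (*Snrpa*, 2071 nt), −0.76 to 0.54 (*Snrpc*, 2680 nt) and −1.13 to 0.29 (*Rbm25*, 752 nt). Per gene they ranged from −1.13 to 0.48 (*Snrpa*), −0.14 to 0.47 (*Snrpc*), −0.66 to 0.45 (*Luc7l*) and −0.31 to 0.50 (*Tia1*). Spliced reads ranged from −0.26 to 0.077 (*Snrnp70*), −0.086 to 0.17 (*Rbm25*) and −0.65 to 0.12 (*Snrpd2*), and unsplit reads from −1.12 to 0.077 (*Snrpa*) and −0.59 to 0.10 (*Luc7l*). The cause was not tested.

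With the replicate number as a block, 1 member was called with fewer unsplit reads, *Luc7l3* (−0.37, adjusted p = 0.0489), and no other member's call changed. Of 8722 genes the block called 87 with fewer unsplit reads, against 19 in the main test. The numbers were not taken to pair the samples. Deviations of same-numbered samples correlated at 0.0017 in spliced reads and 0.035 in odds, which does not show a shift shared by all genes. Over all introns, efficiency was lower in replicate 2 than in replicate 1 at 61.2% in the knockdown and 59.0% in the controls. Whether the numbers pair the samples was not tested in another way.

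Over the whole tables, 1112 introns were called in the main test, 294 by DESeq2, 0 by limma, 232 and 322 at the 5′ and 3′ junction alone, and 1626 with the block. In odds of genes the count was 666, with 1018 under the block. In spliced reads it was 826, with 314 at the best covered intron, and in unsplit reads 338, with 167 by DESeq2, 73 at the best covered intron and 565 with the block. Introns with few unsplit reads and 2 samples per group limited what could be detected.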
